A study of Caenorhabditis elegans with 2 samples.

Results

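The genes described here build the synaptonemal complex and the chromosome axis of meiosis in Caenorhabditis elegans. They were 10 protein-coding genes of the 19973 on the 6 nuclear chromosomes: syp-1, syp-2, syp-3, syp-4, syp-5 and syp-6, the HORMA domain genes him-3, htp-1 and htp-3, and the cohesin gene rec-8. They were chosen by name, with earlier results of the same peak lists already known, and all 10 matched the Ensembl annotation. Chromatin of whole worms was immunoprecipitated through the GFP of a tagged protein, and the recovered DNA was sequenced (ChIP-seq). The study had 1 group of 2 biological replicates: young adults at 62.5 hours, strain RW12302, synchronised by starving larvae of the first stage after bleaching. Both replicates carried a CRISPR insertion at the endogenous D2030.7 gene that adds TY1, EGFP and 3xFLAG tags. D2030.7 is annotated in RefSeq as a C2H2-type domain-containing protein. No untagged or untreated group was used here, and whole worms mix germline and somatic nuclei, so a peak cannot be assigned to a tissue. Promoters that would be recovered with any tagged protein cannot be told apart from those particular to D2030.7.

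In meiotic prophase each chromosome is organised as loops along a protein axis, and the axes of homologous partners are then joined along their length by the synaptonemal complex. In C. elegans the axis holds cohesin with meiotic kleisins (REC-8, COH-3 and COH-4) and the HORMA domain proteins HTP-3, HIM-3, HTP-1 and HTP-2. The SYP proteins form the central region that bridges the axes and are needed for normal crossover formation. The adult hermaphrodite gonad holds germ cells in meiotic prophase, where these genes act.

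The promoter window of a gene ran from 1000 bp upstream to 200 bp downstream of its annotated 5′ end. A peak's summit is its highest point, and its signal is the authors' own value per peak, on a scale of its own in each list. The main list was the authors' conservative pooled list of 2777 peaks past a threshold on the irreproducible discovery rate (IDR), which measures how well a peak's rank repeats between inputs. Replicate 1's own list held 2464 peaks and replicate 2's held 1811. Ranked lists of candidates, most of which missed the threshold, held 67021 peaks for the conservative pooled set, 41183 for replicate 1 and 34645 for replicate 2. The lists hold no read counts, so depth is unknown and no counting error can be given.

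In the main list 6 of the 10 genes had a summit in the window: 5 of the 6 central region genes, 0 of the 3 HORMA domain genes and the kleisin gene rec-8. Over all protein-coding genes the share was 9.79% (1955 of 19973). The genes were chosen with these peaks known, so the count is a description and was not tested. In order of signal the genes with a summit were syp-4, syp-5, syp-6, rec-8, syp-2 and syp-3. The first 5 of these also had a thresholded peak in each replicate's own list and in the other pooled list. The lists' own shares over all genes were 9.08% for replicate 1, 6.55% for replicate 2 and 10.5% for the other pooled list. The genes syp-1, him-3, htp-1 and htp-3 had no thresholded summit in any of these lists.

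**Figure D1:**
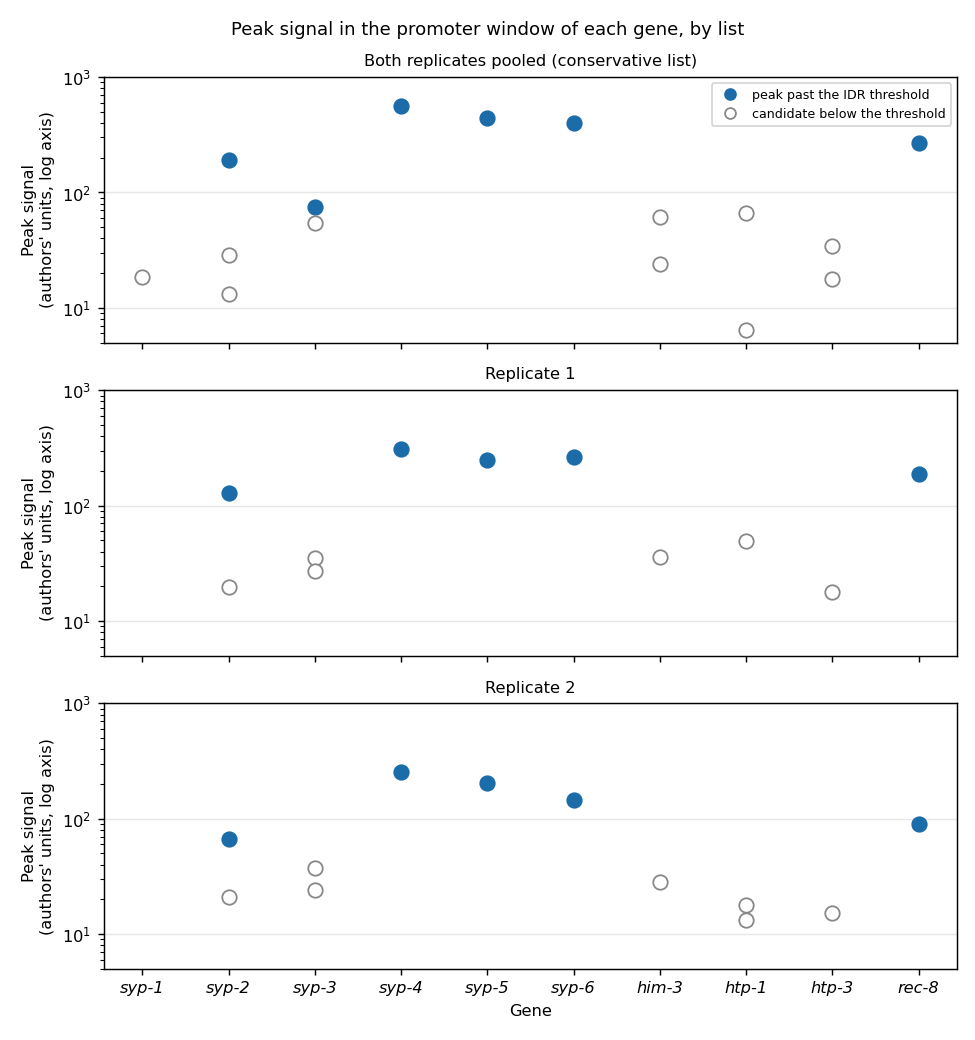
Signal (authors' units, log axis) of every peak in the promoter window of each of the 10 genes, in the conservative pooled list and in each replicate's lists; filled circles are peaks past the IDR threshold and open circles are candidates below it. The genes syp-2, syp-4, syp-5, syp-6 and rec-8 have a filled circle in all 3 panels, syp-3 only in the pooled panel, and the HORMA domain genes none.

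The central region gene syp-4 (WBGene00019247, chromosome I, 6847511 to 6849923, plus strand, WBcel235) had the strongest summit of the set. Its signal was 560.0 in the main list, rank 66 of 2777 by signal. In the replicates' own lists it was 309 in replicate 1 (rank 79 of 2464) and 256 in replicate 2 (rank 45 of 1811). The gene was thus among the strongest peaks of each list. The pooled summit lay at 6847329, 182 bp upstream of the 5′ end, and the replicates' summits lay 195 and 166 bp upstream, 29 bp apart. This sequence is intergenic but lies beside a small RNA gene: the snRNA gene H27M09.6 (6847137 to 6847303) begins 26 bp from the summit. The window of the divergent protein-coding gene H27M09.5 also held the summit, 370 bp upstream of its 5′ end. The peak was therefore near 3 gene starts at once, and which of them it belongs to was not tested. No other of the 6 summits lay within 200 bp of a tRNA, snRNA, snoRNA, microRNA or rRNA gene, and none had a piRNA gene within that distance.

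The related pair syp-5 and syp-6, whose products act partly in place of each other in the central region, had the next strongest summits. At syp-5 (WBGene00021832, chromosome I, 3193528 to 3198838, minus strand) the signal was 439 in the main list (rank 121), with 246 in replicate 1 (rank 144) and 204 in replicate 2 (rank 90). Its summit at 3199035 lay 197 bp upstream in intergenic sequence, with the replicates' summits 13 bp apart. No other protein-coding gene's window held this summit, which sets syp-5 apart among the 6. At syp-6 (WBGene00019002, chromosome I, 6566125 to 6568954, plus strand) the signal was 397 in the main list (rank 159), with 263 in replicate 1 (rank 120) and 144 in replicate 2 (rank 203). Its summit at 6566002 lay 123 bp upstream, and the replicates' summits were 11 bp apart. The syp-6 summit lay between divergent genes: it was 150 bp upstream of mei-2, which encodes a subunit of the katanin that severs microtubules in the oocyte meiotic spindle. The 5′ ends of syp-6 and mei-2 are 273 bp apart, so the peak cannot be assigned to either promoter alone.

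The kleisin gene rec-8 (WBGene00004333, chromosome IV, 13349122 to 13353193, minus strand) had a signal of 266 in the main list (rank 355). In the replicates it was 186 in replicate 1 (rank 267 of 2464) and 90.0 in replicate 2 (rank 590 of 1811). The peak thus stood higher in replicate 1's order than in replicate 2's. The summit at 13353430 was 237 bp upstream of rec-8 and 293 bp upstream of mex-5, a divergent gene for a maternal RNA-binding protein of early embryo polarity. The 5′ ends of rec-8 and mex-5 are 530 bp apart, and the replicates' summits, 20 bp apart, both fell between them.

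The kleisin genes coh-3 and coh-4, which are not among the 10 and whose products work beside REC-8 on the axis, also had summits, so all 3 meiotic kleisin genes had a main-list summit, beside 9.79% of all protein-coding genes. The coh-3 summit (chromosome V, 14457263, 159 bp upstream) had a signal of 398 in the main list, 224 in replicate 1 and 163 in replicate 2. The coh-4 summit (chromosome V, 4175816, 176 bp upstream) had 389 in the main list, 235 in replicate 1 and 157 in replicate 2. In position and signal they resembled each other closely. The exons of coh-3 and coh-4 were identical over 84.1% of their alignment and the 300 bases upstream over 64.9%. The lists hold no reads, so how well reads were separated between these copies was not tested. The same upstream comparison gave 46.1% for htp-1 and him-3, which are not near copies. The windows of bmk-1, a mitotic kinesin gene, and of pid-5, a piRNA pathway gene, held the coh-3 and the coh-4 summit. When each summit counted only for the protein-coding gene with the nearest 5′ end, coh-3 kept its summit and coh-4 did not.

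The 100 bp around the summits of the 3 kleisin genes are given from the RefSeq WBcel235 genome because they show which frequent words of bound sequence recur there. Each is written 5′ to 3′ on the strand of the named gene, and capitals mark matches to the 20 leading words of 7 bases described further on. The rec-8 sequence is chrIV:13353380-13353479 (minus strand), the coh-3 sequence chrV:14457213-14457312 (plus strand) and the coh-4 sequence chrV:4175766-4175865 (minus strand).
rec-8: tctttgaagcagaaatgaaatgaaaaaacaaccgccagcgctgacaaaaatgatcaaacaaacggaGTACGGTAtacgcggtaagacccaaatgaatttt
coh-3: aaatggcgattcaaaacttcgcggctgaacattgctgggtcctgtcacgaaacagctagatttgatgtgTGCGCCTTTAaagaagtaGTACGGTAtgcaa
coh-4: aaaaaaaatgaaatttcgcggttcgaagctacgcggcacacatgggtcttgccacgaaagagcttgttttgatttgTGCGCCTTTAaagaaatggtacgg
The rec-8 and coh-3 sequences share GTACGGTA, and the coh-3 and coh-4 sequences share TGCGCCTTTA. The coh-4 sequence ends in GTACGG at the window edge, so whether it continues as GTACGGTA cannot be read from this stretch.

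The central region gene syp-2 (WBGene00006376, chromosome V, 5536487 to 5537717, plus strand) had a signal of 193 in the main list (rank 709). In the replicates it was 128 in replicate 1 (rank 575 of 2464) and 67.0 in replicate 2 (rank 1025 of 1811). As at rec-8, the peak stood higher in replicate 1's order. Unlike the peaks above, its summit at 5536643 lay inside the gene, 156 bp downstream of the 5′ end in the annotated 5′ UTR, with the replicates' summits 54 bp apart. The windows of the divergent genes cox-16, a cytochrome oxidase assembly gene, and C24G6.8 held it too, at 400 and 769 bp upstream of their 5′ ends. With a narrower window of 500 bp upstream to 100 bp downstream syp-2 no longer counted, which left 5 of 10 genes beside 7.65% of all protein-coding genes. The 30 bases at chrV:5536606-5536635 (plus strand) show the run TAAAGGCGCA that syp-2 shares with the coh-3 and coh-4 windows, on the opposite strand. Leading words are in capitals. They include ATGCGCC, which the coh-3 and coh-4 windows do not hold. The word TACCGTA, which the syp-2 and coh-3 windows both hold, lies outside these bases.
syp-2: actgtaacttTAAAGGCGCATtacaaaata

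The central region gene syp-3 (WBGene00006377, chromosome I, 8663045 to 8664445, minus strand) was the member just inside the threshold. Its signal was 75.5 in the main list, rank 2470 of 2777, at 8664442, 3 bp downstream of the 5′ end in the 5′ UTR. It was absent from both replicates' thresholded lists and from the other pooled thresholded list. As a candidate it had a signal of 34.9 in replicate 1 (rank 4635 of 41183) and 37.7 in replicate 2 (rank 2869 of 34645), with summits 23 bp apart. Its −log10 IDR was 2.02 in the conservative ranked list, where the threshold is 2, and 1.37 in the other pooled ranked list. The window of F39H2.3, a divergent gene, held the summit as well, 534 bp upstream of its 5′ end. A weaker syp-3 candidate with a signal of 54.9 lay 226 bp upstream. The syp-3 summit thus rests on the conservative list alone.

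**Figure D2:**
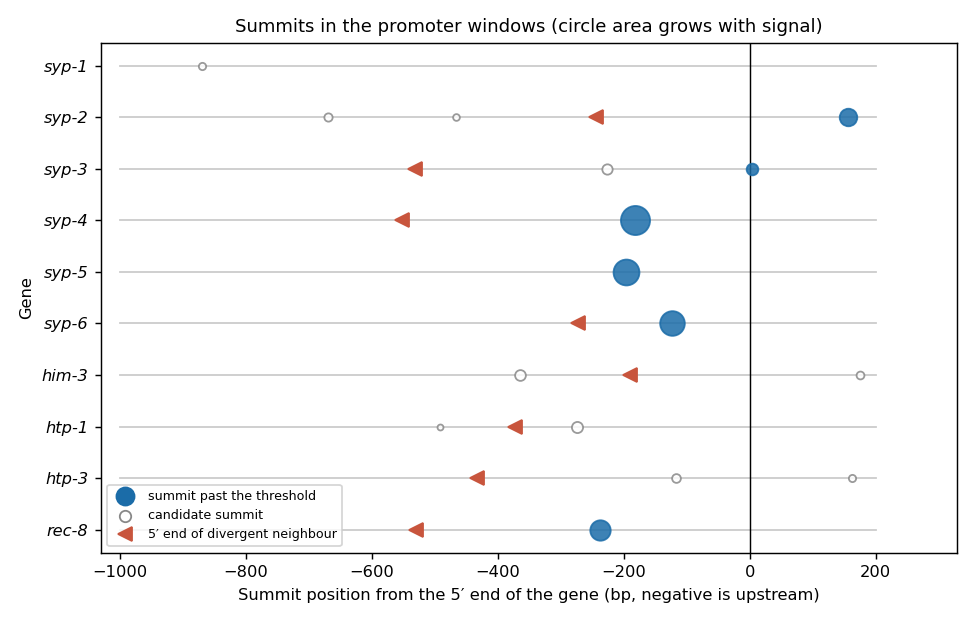
Position of every summit of the conservative pooled lists from the 5′ end of each gene (bp, negative is upstream), with circle area growing with signal; filled circles passed the IDR threshold, open circles did not, and triangles are the 5′ ends of divergent neighbours. The summits of syp-4, syp-5, syp-6 and rec-8 lie 123 to 237 bp upstream, while those of syp-2 and syp-3 lie 156 and 3 bp downstream.

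The HORMA domain genes had candidates that missed the threshold. The him-3 gene, which encodes an axis protein needed for synapsis (WBGene00001862, chromosome IV, 6977508 to 6978765, plus strand), came nearest. Its strongest candidate had a signal of 61.2 in the conservative ranked list (rank 4213 of 67021) with a −log10 IDR of 1.57. In the replicates it was 35.7 in replicate 1 (rank 4424 of 41183) and 28.6 in replicate 2 (rank 6038 of 34645), 70 bp apart. The him-3 gene was thus the member just outside the threshold. This candidate lay 364 bp upstream of him-3, inside an intron of the divergent gene pgl-1, which encodes a P granule protein, and 174 bp downstream of the pgl-1 5′ end. The nearest peak of the main list was 58005 bp from the him-3 5′ end.

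At htp-1 (WBGene00002032, chromosome IV, 5390189 to 5391557, minus strand), whose product controls the release of cohesion and the monitoring of synapsis, the replicates differed. The candidate 274 bp upstream had a signal of 66.5 in the conservative ranked list (rank 3588), higher than at him-3, but a −log10 IDR of 0.148. In replicate 1 it was 49.0 (rank 2598 of 41183), with its summit 303 bp upstream. In replicate 2 it was 17.9 (rank 20727 of 34645), with its summit 278 bp upstream. The site was near the top 6.31% of candidates in replicate 1 and at 59.8% of the list in replicate 2. The 100 bp at this candidate, chrIV:5391781-5391880 on the minus strand, are shown because they hold leading words although the peak did not pass. A leading word was also in 9.06% of the windows flanking other summits, described further on. No other candidate below the threshold is shown, so this match is 1 picked example.
htp-1: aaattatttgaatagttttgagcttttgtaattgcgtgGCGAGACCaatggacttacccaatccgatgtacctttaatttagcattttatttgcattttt

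The gene htp-2, a near copy of htp-1 whose product acts with it, had no main-list summit in its window either. Its strongest candidate, 962 bp upstream, had a signal of 42.3 and a −log10 IDR of 0.628. The exons of htp-1 and htp-2 were identical over 89.0% of their alignment, and the 300 bases upstream over 46.5%. The copies were thus alike in their exons, while their upstream identity was close to the 46.1% of htp-1 and him-3. At htp-3 (WBGene00002034, chromosome I, 4827072 to 4829791, plus strand), the HORMA domain gene whose product brings the others to the axis, the strongest candidate had a signal of 34.5 (rank 19170 of 67021) and a −log10 IDR of 0.222. The replicates placed their strongest htp-3 candidates 162 bp apart, with signals of 17.99 in replicate 1 and 15.3 in replicate 2. These ranks, 21129 of 41183 and 25831 of 34645, are in the lower part of each list.

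The central region gene syp-1 (WBGene00006375, chromosome V, 16404274 to 16407701, plus strand), needed for synapsis, had the weakest candidate of the set. It had a signal of 18.4 (rank 45095 of 67021) 870 bp upstream, in an exon of F13A7.14, and neither replicate's ranked list had any candidate in the window. The gene F13A7.14 thus reaches into the window, which is not a free intergenic promoter. The window of F13A7.14 itself held a main-list summit, with a signal of 128. The main-list peak nearest to the syp-1 5′ end was 2370 bp upstream, with a signal of 9.20.

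**Figure D3:**
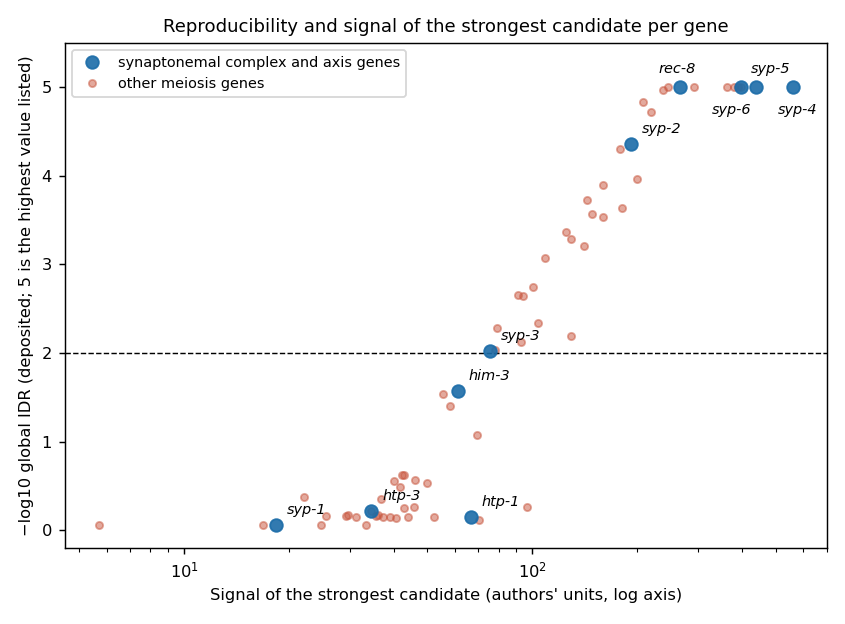
Signal of the strongest candidate in each gene's window (authors' units, log axis) against its deposited −log10 global IDR in the conservative ranked list, for the 10 genes and for 59 other meiosis genes with a candidate; the dashed line is the threshold of 2. The gene syp-3 lies on the line at 2.02, him-3 below it at 1.57 and htp-1 at 0.148 although its signal of 66.5 is close to the 75.5 of syp-3.

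Signals between those of him-3 and syp-3 are at the lower end of the range in which the list changes from few to many thresholded peaks. Of the 1130 candidates with a signal from 60 to 70 anywhere in the genome, 4.87% were in the main list. Of the 571 candidates from 70 to 80 it was 32.4%, and of the 687 candidates from 80 to 100 it was 69.4%. Of the 1324 candidates from 100 to 200 it was 93.3%. The threshold was set on the IDR and not on signal. The −log10 IDR was 1.57 at him-3 and 0.148 at htp-1, where the replicates' ranks differed. The absence of him-3 and htp-1 from the main list is a statement about this threshold and does not show that the protein was absent there. Including candidates, all 10 genes had a summit in the window, beside 53.5% of all protein-coding genes. The strongest candidate per gene had a median signal of 134 over the 10 genes and of 36.6 over the 10680 protein-coding genes with a candidate. No member lay near 134, which fell in the gap between syp-2 at 193 and syp-3 at 75.5.

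**Figure D4:**
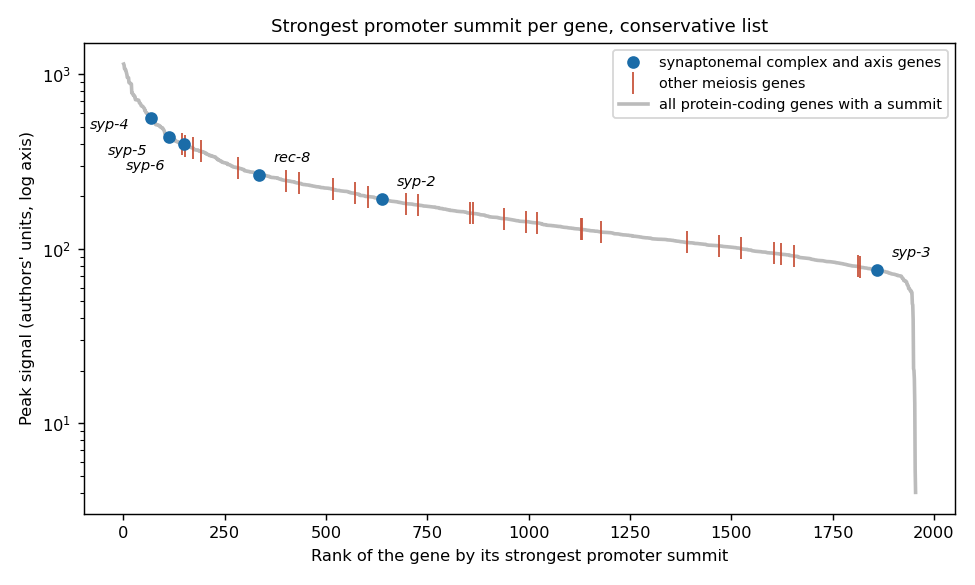
Signal (authors' units, log axis) of the strongest main-list summit of each of 1955 protein-coding genes, in order; blue points are the 6 synaptonemal complex and axis genes with a summit and red ticks are 28 other meiosis genes. The genes syp-4, syp-5 and syp-6 lie at the steep upper end with signals of 560.0, 439 and 397, and syp-3 lies near the lower end at 75.5.

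Of the 6 summits, 5 were in the stronger 1388 peaks of the main list, where 5.63% of all genes had a summit. Over all 1955 genes with a main-list summit the median signal was 144. By rank among the 1506 promoter summits, syp-4 stood at 48, syp-5 at 83, syp-6 at 107, rec-8 at 229, syp-2 at 444 and syp-3 at 1361. The genes of the summits ranked next above and below were vps-39 and the replicative helicase gene mcm-2 for syp-4, and the nucleoporin gene npp-3 and fbxa-83 for syp-5. For syp-6 they were K07C5.13 and dkc-1, for rec-8 K05F1.6 and Y75B12B.1, for syp-2 sac-2 and the ubiquitin chain assembly gene ufd-2, and for syp-3 the myosin chaperone gene unc-45 and cutl-20. Nothing beyond the rank in this list was compared for these neighbours.

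Gene arrangement, which the peaks do not enter, was shared by most of the 10 genes: 8 of them had a divergent protein-coding neighbour with its 5′ end within 1000 bp upstream, against 17.7% of all protein-coding genes (3539 of 19973). The exceptions were syp-1 and syp-5. Distances between the paired 5′ ends ran from 190 bp at him-3 and pgl-1 to 552 bp at syp-4 and H27M09.5. The 8 neighbours were cox-16 at syp-2, F39H2.3 at syp-3, H27M09.5 at syp-4, mei-2 at syp-6, pgl-1 at him-3, ZK616.5 at htp-1, tofu-4 at htp-3 and mex-5 at rec-8. A divergent neighbour did not go with a peak one way: it was present at 5 of the 6 genes with a summit and at 3 of the 4 without. At all 5 genes with both, the same summit lay in the window of a neighbour. Of all 1955 genes with a main-list summit, 55.1% shared their strongest one with the window of another protein-coding gene. When each summit counted only for the protein-coding gene with the nearest 5′ end, small RNA genes such as H27M09.6 left aside, the count stayed at 6 of 10, beside 7.15% of all genes. It was also 6 when the 5′ ends of all transcripts were used and when any overlap of the peak with the window counted, each beside 10.4% of all genes.

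Words of 7 bases, counted on both strands together, were ranked by how much more often they occurred in 100 bp at the other 2170 summits away from small RNA genes than in flanking windows of the same length, whose centres lay 300 bp away on either side. The 20 leading words are given with their share of the other summit windows and then of the flanking windows. Rich in alternating C and G were CGCGCGC with 6.41% against 0.346%, CGCGCCA with 5.25% against 0.346%, AGCGCGC with 5.25% against 0.415%, GCGCGAA with 6.87% against 0.553%, AACGCGC with 6.08% against 0.53% and CGCGCTC with 5.76% against 0.576%. Close to these were GCGCTCC with 5.07% against 0.438%, CGCTCCA with 5.3% against 0.714% and GCGCCAA with 5.35% against 0.714%. Words around GAGAC were GCGAGAC with 7.88% against 0.507%, CGAGACC with 10.7% against 1.27%, GAGACCC with 9.4% against 1.2% and GAGACGC with 5.25% against 0.691%. TCTCGCA, which reads TGCGAGA on the other strand and overlaps GCGAGAC, had 5.16% against 0.714%. A further set overlapped around GGCGC, namely AAGGCGC with 10.2% against 0.876%, AGGCGCA with 8.06% against 0.829%, ATGCGCC with 6.54% against 0.737% and GCCTTTA with 7.83% against 1.01%. The last pair was ACCGTAC with 5.3% against 0.553% and TACCGTA with 8.76% against 1.06%. Many overlap each other and count the same bases. A leading word was in 50% of the summit windows of the members (3 of 6), in 50.2% of the other summit windows (1090 of 2170) and in 9.06% of the flanking windows (393 of 4340). Leaving out syp-4, whose summit is at a small RNA gene, the members' count was 3 of 5. In windows of 200 bp it was 5 of 6, beside 62.1% of the other summit windows. The words were ranked on those other windows, so their shares there are a description, and with 6 member windows no difference was tested.

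The 3 windows with a leading word were those of syp-2, syp-5 and rec-8. Both syp-2 and syp-5 held AAGGCGC together with the overlapping AGGCGCA and GCCTTTA, and syp-2 also ATGCGCC. Both syp-2 and rec-8 held TACCGTA, with the overlapping ACCGTAC at rec-8. At syp-5 the window also held CGAGACC with the overlapping GAGACCC, and GCGCGAA elsewhere. The windows of syp-3, syp-4 and syp-6 held none of the 20, although syp-4 and syp-6 had some of the strongest peaks. A match is a run of letters and not a measured site. The letters absent from these windows say nothing about the protein.

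Other meiosis genes were described by 3 lists of names. Of 68 such genes 28 had a main-list summit in the window (41.2%, beside 9.79% of all protein-coding genes). They were 8 of 18 other axis, cohesin and synapsis genes, 5 of 12 genes of chromosome pairing and movement, and 15 of 38 genes of breaks and crossovers. Of the 28, 18 had a summit that lay in the window of another protein-coding gene too (64.3%, beside the 55.1% of all genes with a main-list summit). When each summit counted only for the protein-coding gene with the nearest 5′ end, 19 of the 68 had one, beside 7.15% of all genes. In the order of the lists above they were 5 of 18, 5 of 12 and 9 of 38. The median signal of the strongest candidate was 92.6 for the 16 axis, cohesin and synapsis genes with a candidate, 81.3 for the 10 pairing genes and 49.7 for the 33 break and crossover genes.

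**Figure D5:**
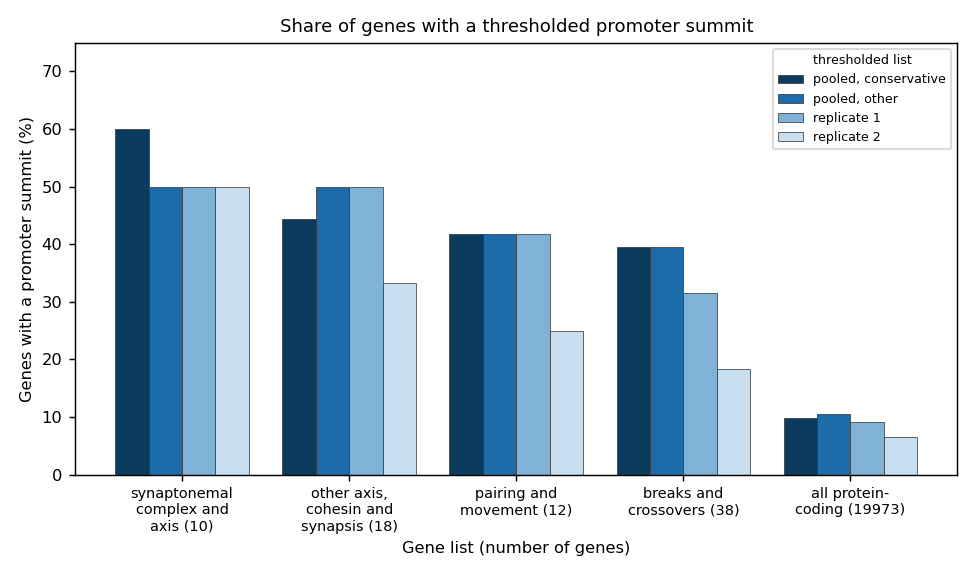
Share of genes (%) with a thresholded summit in the promoter window, for the 10 synaptonemal complex and axis genes, for 3 lists of other meiosis genes and for all protein-coding genes, in the 4 thresholded lists. The first list lies at 50 to 60% in every peak list and all protein-coding genes at 6.55 to 10.5%.

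Among the axis, cohesin and synapsis genes the strongest summits after coh-3 and coh-4 were those of wapl-1, whose product removes cohesin, with a signal of 361, and smc-3, a cohesin core subunit gene, with 219. The mitotic kleisin gene scc-1 followed with 143 and pch-2, a gene of the ATPase that remodels HORMA proteins, with 104. The wapl-1 summit also lay in the window of htz-1, the H2A.Z histone variant gene. The strongest smc-3 summit, 810 bp upstream, lay in introns of gly-9 and mib-1. The smc-3 window held 2 main-list summits, and smc-3 still counted with the window of 500 bp upstream to 100 bp downstream. Replicate 2's own list lacked pch-2. The core cohesin genes him-1 and scc-3 had no main-list summit in the window. The strongest him-1 candidate there had a signal of 43.9 and a −log10 IDR of 0.148. With a window reaching 2000 bp upstream him-1 did have a main-list summit, between coh-4 and wapl-1 in order of signal. That wider window counted 9 of the 18 genes of this list, beside 12.4% of all protein-coding genes. The strongest scc-3 candidate had a signal of 96.7 and a −log10 IDR of 0.265, and scc-3 did have a summit in the other pooled thresholded list.

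Among pairing and movement genes the strongest were prom-1 (246), an F-box gene of meiotic entry and homologue pairing, him-19 (238), the dynein light chain gene dlc-1 (178), the meiotic kinase genes chk-2 (160) and plk-2 (93.1). The pairing centre genes him-8, zim-1 and zim-2 had candidates only, with signals of 16.9, 52.2 and 46.0. Among break and crossover genes the 6 strongest were smc-6 (379), zhp-2 (291), smc-5 (208), dsb-2 (199), xpf-1 (181) and exo-1 (159). Of these, smc-5 and smc-6 encode a repair complex related to cohesin, zhp-2 a RING protein of the synaptonemal complex, dsb-2 a factor for break formation, and xpf-1 and exo-1 nucleases. The thresholded list of replicate 2 lacked chk-2, plk-2, smc-5 and dsb-2.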

How the data were processed

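ChIP-seq peak lists of 2 replicates of 1 group were used. The 8 deposited lists give a signal value per peak, taken as the authors deposited it, and the ranked lists give −log10 of the global IDR, also as deposited. Reads were aligned to ce11 (WBcel235) and a control entered the peak calls, per the file descriptions; that control was not used here. The aligner is not given in the sources used here, nor is the caller. Every main-list peak had a −log10 IDR of at least 2 in the ranked list. Each value was read within its own list. The ranked list of the conservative set was inferred: 50.2% of its first-input intervals were candidates of replicate 1, against 0% in the other pooled ranked list.

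Genes came from Ensembl release 115 (WBcel235) and sequences from RefSeq WBcel235, whose 6 chromosome lengths cover every peak. Coordinates are 1-based. Summits were assigned to windows, words of 7 bases present in at least 5% of summit windows were ranked (0.5 added to flank counts; the 20 shown were chosen after the words were seen), and sequences were aligned globally with Biopython 1.88 in Python 3.11.15. The procedures were tested on simulated data. No test compares groups, since there is 1 group and no control list.

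The members and gene lists were chosen with earlier results of these data known. Named genes are the 10 members, htp-2, genes sharing a member's summit, the strongest of each list of other meiosis genes (at most 6; the pairing list has 5 with a main-list summit), and the genes next in rank. Candidates of him-1, scc-3, him-8, zim-1 and zim-2, and the neighbours bmk-1, pid-5, htz-1, tofu-4, pgl-1 and ZK616.5, were picked with their values in view. Alternatives were the other lists, windows, 5′ ends, assignments and word windows.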

Additional observations from a re-analysis of the deposited data

How the results depend on the processing

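The count of synaptonemal complex and axis genes with a summit was 5 or 6 of 10 under each alternative that used a thresholded list, namely another list, window, 5′ end or assignment, the stronger peaks, or no summits at small RNA genes. Without summits at small RNA genes, which removed syp-4, it was 5, beside 9.06% of all protein-coding genes, and with a window reaching 2000 bp upstream it was 6, beside 12.4%. With every candidate of the ranked list it was 10, beside 59 other meiosis genes and 53.5% of all protein-coding genes. Other meiosis genes with a summit numbered 28 in the main list, beside 9.79% of all protein-coding genes. They numbered 16 without replicate 1, beside 6.55% of all genes, and 26 without replicate 2, beside 9.08%. Among the stronger peaks they numbered 17, where 5.63% of all genes had a summit. With the nearest 5′ end only they numbered 19, beside 7.15% of all genes. The cause of these changes was not tested. Windows of 200 bp held a leading word at 5 of 6 members, beside 62.1% of other summits. Words ranked in the other pooled list were at 4 of 6. For that ranking no share of other summit windows is given, so this count cannot be read as a result about the members. Signals differ in scale between lists and were not compared. The syp-3 summit had no value in the other thresholded lists. No read depth is given. Whether the protein was bound at candidates below the threshold, such as those of him-3 and htp-1, cannot be told from these lists.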
